A study of Ovis aries with 4 samples.

Results

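Genes of the cilium, the centrosome and the microtubule motors were followed by their m6A peaks in ovaries of aged Cele black sheep, 5 to 6 years old, and of young Cele black sheep, 1 to 2 years old. A gene was taken when its deposited name began with CEP, IFT, BBS, CFAP, TTLL, AGBL, DNAH, DNAI or DNAL and a digit, or with DYNC, DYNL, KIF, TUBA, TUBB, TUBG or TUBGCP, or was WDR62, and when it carried a peak at either age. These names gave 80 of the 5261 genes with a peak. The rule uses names and no measured value, but it was written with earlier results of these data known, and WDR62, added by name, was already known as a leading aged peak. The series has 4 samples, an immunoprecipitate with an antibody against m6A and an input library without antibody at each age, and no treatment is given in the labels. Per age, 1 list of peaks was analysed, and input libraries were left aside. Peaks are stretches of RNA enriched in the immunoprecipitate over input, with the position, label, fold enrichment and adjusted p-value that the authors gave them. No comparison between the ages had a replicate or was given a p-value, and the 95% exact binomial intervals printed after shares cover counting error only. Whether a sample pooled animals is not given in the sources used here.

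Cilia are microtubule rods that grow from a centriole at the cell surface. Primary cilia carry receptors such as those of the hedgehog pathway, and motile cilia beat by means of dynein arms fixed to their microtubule doublets. Dyneins and kinesins walk along microtubules, mostly in opposite directions, and intraflagellar transport trains carry tubulin and membrane proteins along the cilium. Centrosomes are built around the same centrioles and organise the spindle when granulosa cells or oocytes divide. The m6A mark, a methyl group on adenosine in messenger RNA, is read by proteins that act on the decay and translation of the transcript.

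All but CFAP57 and CFAP97 carried gene ontology terms in the deposited files, and each of the others had a term on the microtubule, the centrosome, the cilium, the spindle or a motor complex. Of these 78 genes, 54 had a term naming the microtubule, 47 one naming the centrosome or centriole, 41 one naming the cilium or axoneme, 35 one naming the spindle or mitosis, and 21 one naming a dynein or kinesin complex. The same naming rule is met by 224 protein-coding symbols in the sheep gene annotation, and 78 of them (34.8%, 28.6 to 41.5) had a peak at some age. Of all 16417 named protein-coding symbols 4753 did (29.0%, 28.3 to 29.7). Peaks were found for 20 of 39 CEP, 5 of 8 BBS and 3 of 5 TUBGCP symbols, but for 7 of 47 CFAP and 4 of 20 axonemal dynein symbols. Genes deposited under another name are missing from these counts with a peak. Among them are CFAP90, CFAP107, CFAP141 and CFAP210, and with deposited symbols added 11 CFAP genes had a peak. A gene without a peak may be unmethylated, weakly transcribed or below the authors' limits, and the lists do not tell these apart. In whole ovary, fewer cells of a type and less RNA per cell cannot be told apart either.

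Whole-list facts bear on every count that follows. The aged list held 3656 peaks in 3086 genes and the young list 4378 peaks in 3846 genes. The median log10 adjusted p was -5.40 over aged peaks and -14.9 over young peaks, so the lists differ in strength as well as length. Of the marker genes of cell types that could be present, 8 of 28 ovarian genes had an aged peak and 10 of 28 a young peak, with FSHR, FST, INHBB, NR5A2 and NPM2 in both lists and AMH, CYP19A1 and FOXL2 in neither. Markers of multiciliated epithelium had a peak in 6 of 26 cases in the aged list and in 6 of 26 in the young list. TEKT2 and DRC1 were in both lists. TP73, RFX2, HYDIN and RSPH1 were in the aged list only, and CCNO, PAX8, CCDC39 and SPAG17 in the young list only. FOXJ1 and MCIDAS, which are regulators of that cell type, were in neither, and a missing peak does not show missing expression. Dividing-cell markers had a peak in 4 of 20 cases in the aged list (MKI67, BUB1, MCM6 and TPX2) and in 5 of 20 in the young list (ASPM, AURKA, CCNA2, MCM6 and TPX2). Muscle and neural markers had a peak in 1 of 15 cases in the aged list (NCAM1) and in 3 of 15 in the young list (DES, LMOD1 and ELAVL3). The part of cell composition in the results below was not tested.

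Peaks at both ages were less frequent among the cilia, centrosome and motor genes than among all genes of the lists. Of the 80 genes, 22 (27.5%, 18.1 to 38.6) had a peak in the aged list only, 15 (18.8%, 10.9 to 29.0) in both lists and 43 (53.8%, 42.2 to 65.0) in the young list only. Over all genes with a peak, the corresponding shares were 26.9% aged only, 31.8% in both lists and 41.3% young only. The aged-only share thus lay near that of all genes, and the share in both lists was lower by 13.0 percentage points. The share in both lists stayed below that of all genes in each of 11 other settings tried, and the young-only share stayed above it. With only peaks at or above the median fold of 2.00, however, the young-only shares were 56.5% of these genes and 54.7% of all genes. The intervals describe counting error, and the genes are related and not independent draws, so no test was made of these shares.

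**Figure D1:**
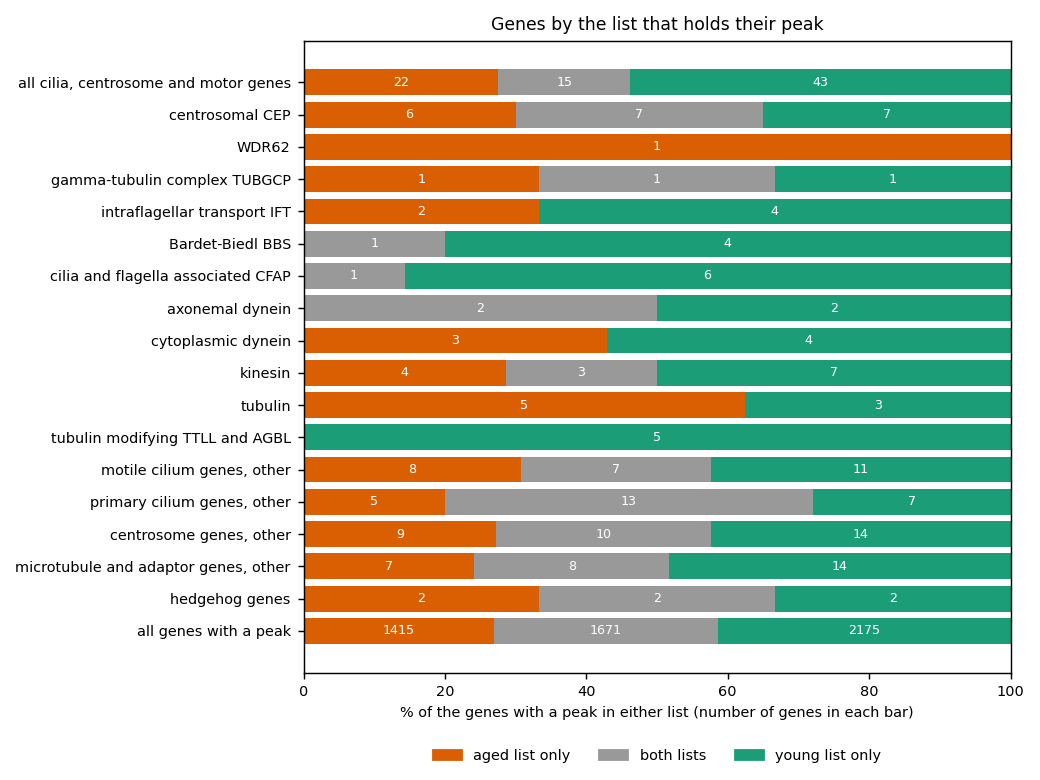
Share of genes with a peak in the aged list only, in both lists and in the young list only (x axis, % of the genes of each row that have a peak), with the number of genes written in each bar. Rows run from the 80 genes and their families to related genes outside the naming rule and all 5261 genes with a peak. The BBS, CFAP, axonemal dynein and TTLL/AGBL rows hold no aged-only gene, and 5 of 8 tubulin genes were aged only.

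Peaks of the 80 genes had median folds near those of their list. The 43 aged peaks had folds of 1.5 to 8.00 with a median of 1.87, and the 65 young peaks 1.5 to 6.60 with a median of 2.00. The medians over all peaks were 1.88 in the aged and 2.05 in the young list. Folds of 2.00 or more were on 46.5% of aged and 50.8% of young peaks of these genes, against 42.7% and 58.3% of all peaks. Their median log10 adjusted p was -4.96 in the aged and -18.6 in the young list, against -5.40 and -14.9 over all peaks. These differences were not tested. Every peak of these genes had an adjusted p below 0.05, the weakest being TUBB4B in the aged list (0.0479) and a BBS1 peak in the young list (6.46e-05). Few peaks of any gene were above 0.05, 120 of 3656 aged and 10 of 4378 young ones. Depth is unknown, so an equal fold need not mean the same in both lists, and folds are ranked here only within a list.

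**Figure D2:**
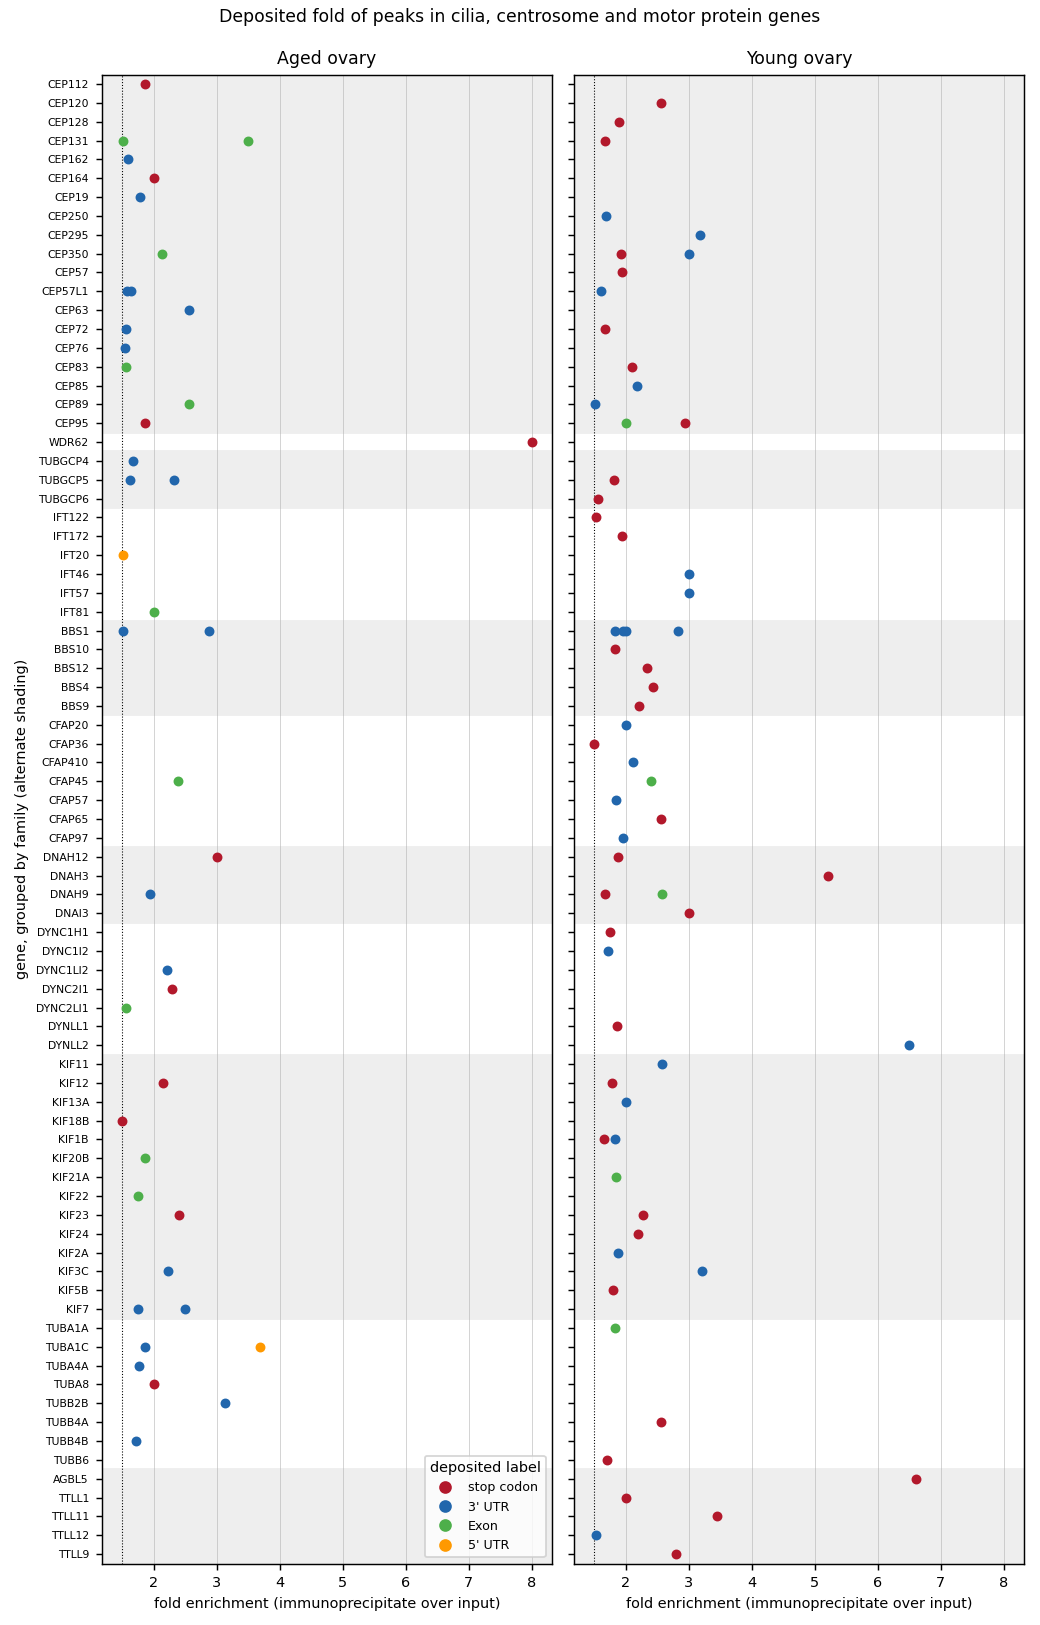
Deposited fold enrichment of immunoprecipitate over input (x axis, linear) of the peaks in 79 of the 80 genes (y axis, grouped by family with alternate shading), with the aged list at left and the young list at right. Points are peaks, coloured by deposited label, and the dotted line marks a fold of 1.5, the lowest in either list. Most points lie between 1.5 and 3.50, with WDR62 at 8.00 in the aged list and AGBL5, DYNLL2 and DNAH3 at 5.20 or more in the young list standing apart.

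WDR62 encodes a scaffold protein of the spindle pole whose loss causes microcephaly in people. Its aged peak lay on chromosome 14 at 46071699 to 46071849 on the plus strand, in the coordinates of the deposited file, and was labelled stop codon. The fold was 8.00 (adjusted p 6.31e-24), which had rank 2 among the 3656 aged peaks, and the young list held no WDR62 peak. WDR62, AGBL5, DYNLL2 and DNAH3 were already known to lead these lists when the genes were chosen, so their folds are given as a description.

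Among the 20 CEP genes, which encode centriole and centrosome proteins, the lists were evenly filled, with 6 aged only, 7 in both and 7 young only. The intervals of these shares (11.9 to 54.3%, 15.4 to 59.2% and 15.4 to 59.2%) include the 26.9%, 31.8% and 41.3% of all genes. The aged-only genes were CEP63 (fold 2.57), which acts in centriole duplication, CEP164 (2.00), a distal appendage protein needed to start a cilium, CEP112 (1.87), CEP19 (1.78), CEP162 (1.60) and CEP76 (1.54), which limits centriole reduplication. Young-only genes included CEP295 (3.17) and CEP120 (2.56), both needed for centrioles to elongate, CEP85 (2.17), CEP57 (1.94), CEP128 (1.89), and CEP250 (1.69), whose product links the 2 centrioles of a cell. Folds thus reached 2.57 among the aged-only and 3.17 among the young-only genes. The CEP63 peak lay on chromosome 1 (255417253 to 255417548, 3' UTR) and that of CEP295 on chromosome 21 (672801 to 672950, 3' UTR).

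Of the 7 CEP genes with peaks at both ages, 5 had overlapping ones, and over all genes with peaks at both ages 84.3% did. CEP83 and CEP89, distal appendage genes like CEP164, had no overlapping pair. The aged peak of CEP83 was labelled exon (fold 1.56, chromosome 3, 130577881 to 130601812, introns included) and the young peak stop codon (2.10, 130576635 to 130577831). For CEP89 the aged peak was labelled exon (2.57, chromosome 14, 42820361 to 42825769) and the young peak 3' UTR (1.51, 42820162 to 42820311). The gaps between the aged and young peaks were thus short, and in both genes the aged peak lay on the 5' side. CEP131, a centriolar satellite gene, had 2 aged peaks labelled exon with folds of 3.50 (chromosome 11, 51007840 to 51009261) and 1.51 (51009439 to 51009781), and a young peak labelled stop codon (1.66, 51009731 to 51010875) that overlapped the weaker aged peak alone.

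The remaining CEP genes with peaks at both ages had overlapping ones. CEP350, a centriole stabilising gene, had an aged peak labelled exon (2.13, chromosome 12, 60711680 to 60711830) inside the span of a young peak labelled 3' UTR (3.00, 60706514 to 60711880), and a second young peak labelled stop codon (1.92, 60715420 to 60715570). The aged CEP95 peak (1.87, chromosome 11, 48448458 to 48449472, stop codon) ended at the same base as the stronger of its young peaks (2.93, 48449323 to 48449472, stop codon) and met the other young peak at 1 base (2.00, 48444599 to 48448458, exon). In CEP57L1, a paralog of CEP57, the aged peaks had folds of 1.64 (chromosome 8, 28286257 to 28286453) and 1.58 (28285913 to 28286158), both with an adjusted p of 0.0257, and the young peak (1.60, 28285913 to 28286060) shared its 3' edge with the weaker aged peak. CEP72, another satellite gene, had overlapping peaks of 1.56 in the aged and 1.66 in the young list.

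Gamma-tubulin complexes seed new microtubules at the centrosome, and 3 of their TUBGCP genes had peaks. TUBGCP4 was aged only (1.68, 3' UTR) and TUBGCP6 young only (1.55, stop codon). TUBGCP5 had 2 aged peaks labelled 3' UTR, with folds of 1.63 (chromosome 2, 114099466 to 114099715) and 2.33 (114099963 to 114100112). Its young peak was labelled stop codon (1.81, 114099267 to 114099416) and overlapped neither of them.

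Of 6 intraflagellar transport genes, 0 had a peak at both ages (0 to 45.9%), an interval that includes the 31.8% of all genes. IFT81 (2.00, labelled exon), whose product binds tubulin cargo, and IFT20 (1.52, labelled 5' UTR), which links the trains to the Golgi, were aged only. IFT46 (3.00, 3' UTR) and IFT57 (3.00, 3' UTR) of the outward-moving IFT-B complex, IFT172 (1.94, stop codon) of the same complex and IFT122 (1.52, stop codon) of the returning IFT-A complex were young only. The IFT46 peak lay on chromosome 15 (28941703 to 28941902, adjusted p 6.31e-40). By their labels the 2 aged peaks were in the body or 5' UTR of the transcript, and the 4 young ones toward its 3' end. Over all peaks, exon labels were on 15.3% of aged and 9.30% of young ones, and 5' UTR labels on 2.49% and 1.55%.

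Bardet-Biedl genes encode the coat that carries membrane receptors in and out of the cilium, and the factors that assemble it. BBS1, a subunit of the coat, was the gene with the most peaks of the 80, with 2 aged and 4 young ones, all labelled 3' UTR on the plus strand of chromosome 21. The aged peaks had folds of 1.52 (40997886 to 40998085) and 2.88 (40999776 to 41000074). The young peaks had folds of 1.83 (40997836 to 40997985), 1.96 (40998085 to 40998234), 2.83 (40998632 to 40998781) and 2.00 (40999925 to 41000074). The strongest young peak, at 40998632, lay in a stretch without an aged peak, whereas the other young peaks overlapped an aged one. The young peak that starts at 40998085 did so by 1 base only. The coat genes BBS4 (2.43) and BBS9 (2.21) and the assembly genes BBS12 (2.33) and BBS10 (1.82) were young only, all labelled stop codon. These are 4 of 5 BBS genes with a peak (80.0%, 28.4 to 99.5), and the interval includes the 41.3% of all genes. The stop codon label was on 41.3% of all young peaks.

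The CFAP genes and the axonemal dynein genes, most of them parts of the motile axoneme, were 8 young only and 3 in both lists. Aged only were 0 of 7 CFAP genes (0 to 41.0%) and 0 of 4 axonemal dynein genes (0 to 60.2%), and both intervals include the 26.9% of all genes. Axoneme genes under other names, given further on, did include aged-only ones. CFAP45, a protein inside the doublet microtubules, had nearly the same peak at both ages, labelled exon on chromosome 1, with a fold of 2.38 in the aged list (110896048 to 110900703) and 2.40 in the young list (110896048 to 110900654). CFAP65 (2.56), needed for sperm flagella, CFAP410 (2.11), CFAP20 (2.00), which seals the doublet, CFAP97 (1.95), CFAP57 (1.85) and CFAP36 (1.5) were young only. DNAH12, an inner-arm dynein heavy chain gene, had overlapping peaks labelled stop codon on chromosome 19, with a fold of 3.00 in the aged list (43925081 to 43925231, adjusted p 2.51e-23) and 1.88 in the young list (43925032 to 43925231, 2.00e-27). DNAH9, an outer-arm heavy chain gene, had an aged peak labelled 3' UTR (1.95, chromosome 11, 30412267 to 30412467) that overlapped a young peak labelled stop codon (1.67, 30412317 to 30412517). A second young DNAH9 peak was labelled exon and lay far upstream (2.57, 30174686 to 30176266). DNAH3 (5.20, chromosome 24, 19219665 to 19219815, stop codon) and the inner-arm intermediate chain gene DNAI3 (3.00, chromosome 1, 62177712 to 62177962, stop codon) were young only.

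Of 7 cytoplasmic dynein genes, 3 were aged only, 4 young only and 0 in both (0 to 41.0%), an interval that includes the 31.8% of all genes. Aged-only peaks lay in DYNC2I1 (2.29, adjusted p 6.31e-21, stop codon) and DYNC2LI1 (1.56, exon), both of the dynein that returns trains from the ciliary tip, and in DYNC1LI2 (2.21, 3' UTR), a light intermediate chain of the dynein of the cell body. Young-only peaks lay in the motor subunit gene DYNC1H1 (1.74), the intermediate chain gene DYNC1I2 (1.71) and the light chain genes DYNLL1 (1.86) and DYNLL2 (6.50). The DYNLL2 peak lay on chromosome 11 at 8581238 to 8581437 on the plus strand, was labelled 3' UTR (adjusted p 4.57e-10) and had rank 4 by fold among the 4378 young peaks. Both DYNC2 genes with a peak were thus aged only, against 26.9% of all genes, but they are 2 genes of 1 list per age. Of the 4 axonemal dynein genes, which also work in cilia, 0 were aged only.

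Of 14 kinesin genes, 4 were aged only, 3 in both lists and 7 young only. The intervals of these shares (8.39 to 58.1%, 4.66 to 50.8% and 23.0 to 77.0%) include the 26.9%, 31.8% and 41.3% of all genes. Kinesins of the mitotic spindle were 3 aged only, KIF20B (1.86), KIF22 (1.76), which pushes chromosome arms, and KIF18B (1.5), 2 young only, KIF11 (2.58), which drives spindle poles apart, and the depolymerase gene KIF2A (1.87), and 1 in both, KIF23. KIF23, a motor of the central spindle in cytokinesis, had peaks ending at the same base and labelled stop codon on chromosome 7, with folds of 2.40 in the aged list (16331320 to 16331469) and 2.27 in the young list (16331271 to 16331469, adjusted p 1.26e-50). The other kinesins were 1 aged only, 2 in both and 5 young only. Their aged-only interval (0.316 to 52.7%) overlapped that of the spindle kinesins (11.8 to 88.2%), and the difference was not tested. Both intervals include the 26.9% of all genes. KIF7, which acts at the ciliary tip in hedgehog signalling, was the aged-only one, with 2 peaks labelled 3' UTR on chromosome 18 (fold 2.50 at 20381715 to 20381865 and 1.75 at 20382164 to 20382314). KIF24, known to restrain cilium formation (2.19), KIF21A (1.84) and the transport kinesins KIF13A (2.00), KIF5B (1.79) and KIF1B were young only. KIF1B had peaks labelled 3' UTR (1.83, chromosome 12, 42455853 to 42456577) and stop codon (1.65, 42451603 to 42451753). KIF3C, a kinesin-2 gene, had folds of 2.23 in the aged list (chromosome 3, 33234578 to 33234728) and 3.20 in the young list (33234528 to 33234778), the aged peak lying inside the young one. KIF12 had folds of 2.15 in the aged list (chromosome 2, 9635394 to 9635592) and 1.78 in the young list (9635444 to 9635592), with the young peak inside the aged one.

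Tubulin genes encode the subunits of the microtubule, and 8 had a peak. Of these 5 were aged only (62.5%, 24.5 to 91.5, against 26.9% of all genes), 3 young only and 0 in both (0 to 36.9%, against 31.8%). Aged-only genes were TUBA1C with 2 peaks, TUBB2B (3.14), TUBA8 (2.00), TUBA4A (1.77) and TUBB4B (1.72), and young-only genes were TUBB4A (2.55), TUBA1A (1.83) and TUBB6 (1.70). The TUBB2B peak was labelled 3' UTR on chromosome 20 (49611399 to 49611794, adjusted p 2.29e-05). TUBA1C had an aged peak of 3.69 labelled 5' UTR (chromosome 3, 137069363 to 137069510, minus strand) and one of 1.87 labelled 3' UTR (136975794 to 136975942). The first of these lies close to the young TUBA1A peak, labelled exon on the opposite strand (137072999 to 137073147). Coding sequences of alpha-tubulin genes can be closely similar, so reads from them can be split between copies. Both TUBA1C peaks were labelled UTR, and they lie far apart. Whether reads were shared between copies was not tested. TUBA1A and TUBA1C also lack those symbols in the sheep gene table, so the assignment of both is uncertain. Without the 8 tubulin genes, 17 genes were aged only, 15 in both and 40 young only.

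TTLL genes belong to the tubulin tyrosine ligase-like family, many of whose enzymes add glutamates to tubulin, and AGBL genes encode enzymes that remove them. All 5 of the TTLL and AGBL genes with a peak had it in the young list only. AGBL5, which removes the glutamate at the branch point of the side chain, had a young peak of 6.60 labelled stop codon on chromosome 3 (34152644 to 34152844, plus strand, adjusted p 2.00e-22). Its rank by fold among young peaks was 3. The glutamylase genes TTLL11 (3.44, chromosome 3, 14058583 to 14058733), TTLL9 (2.79) and TTLL1 (2.00) had peaks labelled stop codon, and TTLL12 (1.52) had a peak labelled 3' UTR. The exact interval of 5 of 5 genes reaches down to 47.8%, against 41.3% young only over all genes. This family is among 11 looked at, AGBL5 was already known to lead its list, and the share was not tested.

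Of the 80 genes, the 15 with peaks at both ages were compared for where the peaks lay. Same-strand overlap of 1 base or more was found in 12 of the 15 genes, and over all genes with peaks at both ages in 1408 of 1671 (84.3%). Of all peaks of the 80 genes, 13 of 43 aged peaks (30.2%, 17.2 to 46.1) and 15 of 65 young peaks (23.1%, 13.5 to 35.2) overlapped the other list, against 41.0% of aged and 34.3% of young peaks overall. The 3' edge of the 3'-most peak was then compared between the lists. This edge was the same base in 7 genes, BBS1, CEP95, DNAH12, KIF12, KIF23, CEP57L1 and CFAP45. In the other 8 the aged edge lay 5' of the young one, by 50 bases in DNAH9, CEP72 and KIF3C, by 199 in CEP89 and TUBGCP5, by 1094 in CEP131, by 1246 in CEP83 and by 3740 in CEP350, introns included. By this measure an aged edge on the 3' side was found in 0 of 15 genes (0 to 21.8%), against 23.5% of all genes with peaks at both ages. Peaks further upstream in a gene were not compared by it. By strand, the aged edge lay on the 5' side in 3 of 8 plus-strand and 5 of 7 minus-strand genes. Over all genes with peaks at both ages it did so in 32.4% on the plus strand and 67.9% on the minus strand, so the shift on the minus strand was also present over the lists as a whole.

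**Figure D3:**
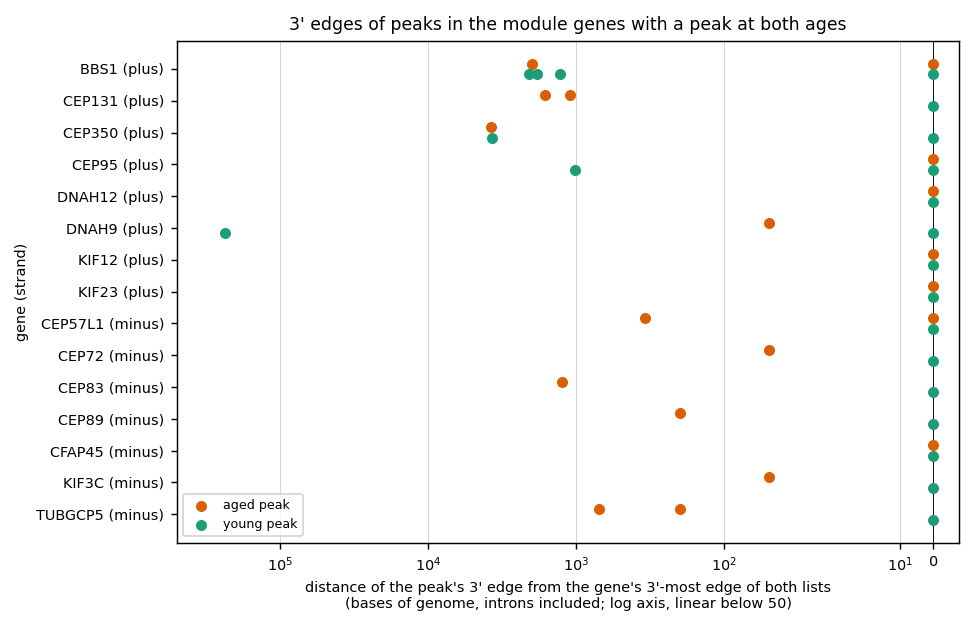
Distance of the 3' edge of each peak from the 3'-most edge found in the gene in either list (x axis, bases of genome with introns included, log axis that is linear below 50 bases, 5' to the left) for the 15 genes with peaks at both ages (y axis, with the strand of the gene). Aged points are drawn above young points. The 3'-most edge at 0 belongs to a young peak in each gene, and an aged peak shares it in 7 genes.

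Deposited labels of these peaks followed the strand pattern of the whole lists. They are the authors' labels and were not checked against transcript models here. Stop codon labels were on 10 of 43 aged peaks (23.3%, 11.8 to 38.6) and 35 of 65 young peaks (53.8%, 41.0 to 66.3), and exon labels on 10 of 43 aged peaks (23.3%, 11.8 to 38.6) and 5 of 65 young peaks (7.69%). On the plus strand 8 of 19 aged and 19 of 34 young peaks were labelled stop codon, and on the minus strand 2 of 24 aged and 16 of 31 young peaks. Over all minus-strand peaks the label was on 2.58% of aged and 39.0% of young ones, and over all plus-strand peaks on 27.5% and 43.1%. CEP72, TUBGCP5 and DNAH9 carried a 3' UTR label in the aged list and a stop codon label in the young list. Yet in each of them the aged 3' edge lay 5' of the young one, the reverse of the order of these labels in a transcript. In the young list, CEP350 and KIF1B also had a peak labelled 3' UTR that lay 5' of one labelled stop codon. Such label differences therefore do not show a shift toward the 3' end. The 2 peaks labelled 5' UTR, in IFT20 and TUBA1C, were aged. Introns were crossed by 14 of 43 aged peaks (32.6%, 19.1 to 48.5) and 11 of 65 young peaks (16.9%, 8.76 to 28.3), against 22.5% of aged and 16.9% of young peaks overall. The intervals of these shares included the value over all peaks of the same list. That of the aged 3' UTR label did not, with 21 of 43 peaks (48.8%, 33.3 to 64.5) against 66.4% overall.

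**Figure D4:**
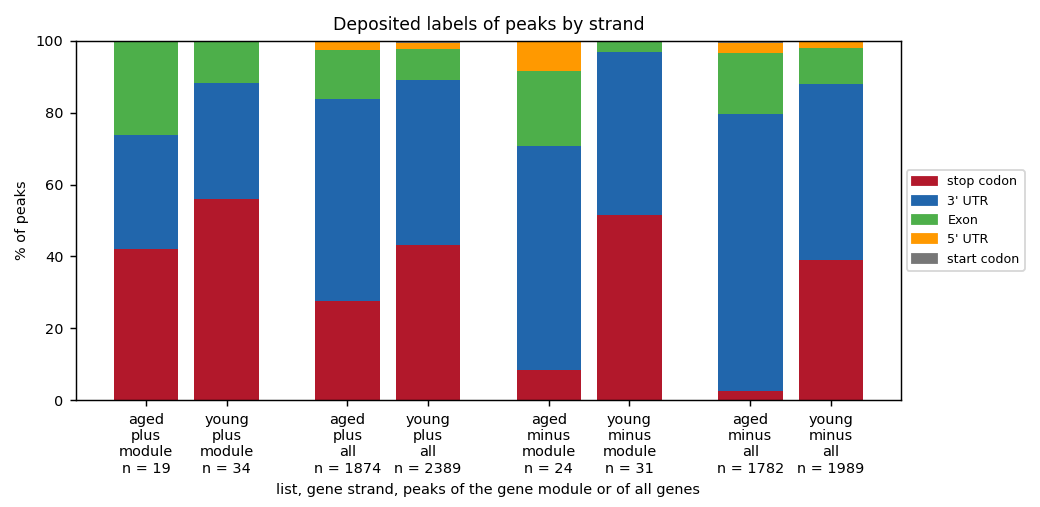
Share of peaks (y axis, %) under each deposited label, by list and by strand of the gene, for the peaks of the 80 genes (module) and of all genes. On the minus strand the stop codon share was 8.33% of 24 aged and 51.6% of 31 young module peaks.

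Genes of the same structures that the naming rule does not take varied between lists around the shares of all genes. Over 5 lists together, 119 genes had a peak, 31 aged only (26.1%), 40 in both (33.6%) and 48 young only (40.3%). The share in both lists was 52.0% for the primary cilium list, the highest of the 5, and the difference from the 80 genes was not tested. Among genes whose deposited terms name the cilium or axoneme, the 41 that follow the naming rule were 8 aged only, 8 in both and 25 young only. The 194 that do not follow it were 49 aged only (25.3%), 51 in both (26.3%, 20.2 to 33.1) and 94 young only (48.5%, 41.2 to 55.7). Genes outside the naming rule with a term naming a dynein or kinesin complex were 5 aged only, 3 in both (14.3%, 3.05 to 36.3) and 13 young only (61.9%, 38.4 to 81.9) of 21, and these intervals include the shares of all genes.

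Of 26 other motile cilium genes with a peak, 8 were aged only, 7 in both and 11 young only. Aged-only ones included SPAG1 (3.33), which assembles dynein arms, CCDC146 (2.50), the central apparatus gene HYDIN (2.00) and the radial spoke gene RSPH1 (2.00). Young-only ones included CCDC39 (2.75), a ruler for the axoneme repeat, CCDC113 (2.57), TEKT4 (2.57), and the radial spoke gene RSPH9 (2.56). AK8 (1.62 aged, 1.73 young), CCDC181 (1.80 aged, 1.75 young) and the nexin link gene DRC1 (2.00 aged, 2.00 young) had overlapping peaks.

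Of 25 other genes of the primary cilium, 5 were aged only, 13 in both and 7 young only. The transition zone gene TCTN3 (2.67), EVC2 (1.86), LZTFL1 (1.78) and CPLANE1 (1.75) led the aged-only ones, and ARMC9 (2.92), ARL3 (2.17), the polycystin gene PKD1 (2.00) and TMEM138 (1.97) the young-only ones. EVC, RPGR and the ciliary phosphatase gene INPP5E had peaks at both ages. Those of INPP5E did not overlap and its strongest aged peak had an adjusted p of 0.0776.

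Of 33 other centrosome genes, 9 were aged only, led by LRRCC1 (3.00), CCDC14 (2.30), NUMA1 (2.23), which anchors the spindle pole, and TACC1 (2.15), 10 were in both and 14 young only. Young-only ones were led by POC1A (4.33), which stabilises centrioles, KIAA1217 (3.67), the rootlet gene CROCC (3.12), and HAUS3 (3.00). KIAA1217 was counted as listed, and its place at the centrosome was not checked. PCM1, the scaffold of centriolar satellites, and DZIP1 had overlapping peaks at both ages, and the peaks of CCDC88A did not overlap.

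Of 29 other microtubule, adaptor and folding genes, 7 were aged only, led by MAP7D2 (1.95), MAP1A (1.83), CLIP3 (1.77) and the severing gene FIGN (1.71), 8 were in both and 14 young only. MAP4 (3.37), the dynein adaptor gene HOOK2 (3.11), MAP7D3 (3.00) and CAMSAP2 (2.67), which caps minus ends, led the young-only ones. MAP1B and the severing gene SPAST had overlapping peaks, whereas the tubulin folding gene TBCC had 3 aged peaks reaching 4.11 and a young peak of 1.60 elsewhere.

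Of 6 hedgehog genes with a peak, the transducer gene SMO (1.94, adjusted p 7.94e-29) and DISP1 (1.94), which releases the ligand, were aged only. The transcription factor gene GLI1 (3.29) and SCUBE1 (2.00) were young only. The co-receptor gene BOC (2.31 aged, 2.39 young) and the ciliary receptor gene GPR161 (2.30 aged, 2.40 young) had overlapping peaks.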

How the data were processed

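Ovarian RNA of aged and young sheep was extracted with Trizol, and a stranded total RNA kit and an Illumina NovaSeq instrument were used, per the labels' protocols. The submitters' processing notes name ChIPseeker and DESeq2 without a role. Not given in the sources used here are the peak caller, the aligner, the depth and the build of the genome. The authors deposited 1 annotated peak list per age. Per the file headers, the authors give each peak a fold enrichment over input, which is a linear ratio, together with raw and adjusted p-values. The deposited log10 p columns were treated as a score. Both lists hold no fold below 1.5. Starts were shifted to count from 1.

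Peaks were taken as distinct positions, matched on strand over genomic spans by at least 1 base, and counted per deposited gene name. Intervals are exact (Clopper-Pearson) at 95%. Chromosome numbers and symbols came from a gene table of assembly ARS-UI_Ramb_v3.0, which matched 99.5% of aged and 99.5% of young peaks by gene identifier. The genes, the 5 related lists and the 4 marker lists were chosen with earlier results of these data known. Membership of the related lists was not checked gene by gene, and KIAA1217 and TBCK may not belong to theirs. Of the 80 genes 1 is counted but not reported by name here, the others are named, and from each related list the 4 leading aged-only and young-only genes by fold and the 3 with most peaks among those in both. The overlap and interval code was tested on simulated data. Alternatives were lists of equal length, an adjusted p limit of 0.01, stricter folds, 1 strand, peaks within 1 exon, exon and UTR labels only, deposited symbols in place of names, a 50% overlap, and overlap required for a gene in both lists. The minus strand, all deposited symbols and leaving out tubulins were chosen after seeing the data. Tables were handled in pandas 2.3.3 under Python 3.11.15, intervals computed with scipy 1.17.1, and figures drawn with matplotlib 3.10.9.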

Additional observations from a re-analysis of the deposited data

How the results depend on the processing

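No paired analysis was possible because the aged and young lists carry different replicate numbers and each age has 1 list. Of 120 comparisons of a main value with another setting, 92 stayed within 1.5 times the count or within the interval of the share or median. With folds of at least 2.00, 5 genes were in both lists and 26 young only, related genes were 19 aged only and 15 in both, and the median folds were 2.39 aged and 2.56 young. On the plus strand alone 9 genes were aged only, 8 in both and 20 young only, and on the minus strand alone 13, 7 and 23. The related genes were 14, 23 and 29 on the plus strand and 17, 17 and 19 on the minus strand. The share of aged peaks that overlapped a young peak was 47.4% on the plus strand and 16.7% on the minus strand, and of young peaks 12.9% on the minus strand. The aged stop codon share was 42.1% on the plus and 8.33% on the minus strand. Within 1 exon 14 genes and 20 related genes were aged only. With exon and UTR labels only, 7 genes were in both and 20 young only, and 25 related genes were in both. Fewer peaks enter each of these settings. In all 11 settings the share in both lists remained below that of all genes. The aged-only share was above it in 5 and below it in 6.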

Other observations

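Some genes carry a symbol of the same families in the deposited annotation but another name, and they were left out by the naming rule. CFAP107, under the name C12H1orf158, had an aged-only peak labelled 3' UTR with a fold of 2.07 (adjusted p 2.24e-08). CFAP210, under the name CCDC173, had a young-only peak labelled exon (2.67), and CFAP141 (1.72) and CFAP90 (1.66) had young-only peaks labelled stop codon. LOC101116286, with the symbol TUBA1D, had a young-only peak of 3.43 labelled stop codon on chromosome 2 (221219728 to 221219926, plus strand). It lies near the aged-only TUBA4A peak on the minus strand (221199307 to 221199900). The TUBA4A peak was labelled 3' UTR, and sharing of reads between alpha-tubulin copies was not tested. LOC101103096, with the symbol of TTLL3, had a young-only peak of 1.56 labelled 3' UTR. With all of these added, 23 genes were aged only, 15 in both lists and 48 young only.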
